A study of Homo sapiens with 2 samples.

Results

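Box C/D small nucleolar RNAs (snoRNAs) were taken as every gene that GENCODE v44 types as snoRNA and whose symbol begins with SNORD, without the copies of SNORD115 and SNORD116. This gave 228 genes with 215 symbols among 59026 matched genes, each with 1 listed transcript. The SNORD115 and SNORD116 copies, 83 genes that were left out, together held 1 estimated count in replicate 1 and 0 in replicate 2. The rule used names and annotation alone and no measured value.

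Box C/D snoRNAs are non-coding RNAs of the nucleolus that carry short conserved motifs, box C near the 5′ end and box D near the 3′ end. They are bound by the methyltransferase fibrillarin (FBL) with NOP56, NOP58 and SNU13, and most of them pair through the bases upstream of a box D to rRNA or to the U6 spliceosomal RNA, where fibrillarin then methylates the ribose of the paired base. A few, such as U3 (the SNORD3 genes), U8 (SNORD118), U13 (SNORD13), U14 (the SNORD14 genes) and U22 (SNORD22), act in the cutting, folding or acetylation of the pre-rRNA. Most human box C/D snoRNAs are cut out of introns of host genes, whereas U3, U8 and U13 have transcription units of their own.

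The data came from untreated HEK293 Flp-In T-Rex cells, an established human embryonic kidney line with an integrated site for inducible transgenes. Total RNA was depleted of rRNA and sequenced after TruSeq library preparation, in 1 group of 2 libraries, replicate 1 and replicate 2. The labels do not say whether the libraries came from separate cultures, so the SD measures the spread between the libraries only, which may be technical. Replicate 1 held 25158962 estimated counts and replicate 2 held 27143860. The deposited normalised count, used below unless another scale is named, is the estimated count after division by a size factor of that library. Of the markers taken for this line, vimentin (VIM) had 16406 and 15363 normalised counts, NEFL 1868 and 1848, LHX1 108 and 117, PAX2 33.9 and 50.1, and NEFM 14.5 and 18.7. Of the blood markers PTPRC and CD3E were listed at 0 and HBB had 179 and 182.

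The sequences of SNORD17, SNORD97 and the U3 gene SNORD3C are shown first, because these genes were among the highest members. SNORD17 is at chr20:17962710-17962946 on the minus strand and SNORD97 at chr11:10801467-10801608 on the minus strand (GRCh38, GENCODE v44). For SNORD3C the 217 bases that RefSeq annotates are given, chr17:19190029-19190245 on the minus strand. Capitals mark the letters TGATG, the core of box C, within the first 20 nt, and CTGA, box D, within the last 15 nt, searched on the RNA strand. Neither string was found in those windows of SNORD97, and SNORD3C was not marked.
SNORD17: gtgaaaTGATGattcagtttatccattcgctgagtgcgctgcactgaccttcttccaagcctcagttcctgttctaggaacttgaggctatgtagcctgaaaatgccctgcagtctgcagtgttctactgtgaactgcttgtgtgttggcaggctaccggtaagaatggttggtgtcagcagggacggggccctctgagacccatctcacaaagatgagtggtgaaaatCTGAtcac
SNORD97: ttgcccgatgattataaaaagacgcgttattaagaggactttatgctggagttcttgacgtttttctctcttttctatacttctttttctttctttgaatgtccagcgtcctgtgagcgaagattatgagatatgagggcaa
SNORD3C: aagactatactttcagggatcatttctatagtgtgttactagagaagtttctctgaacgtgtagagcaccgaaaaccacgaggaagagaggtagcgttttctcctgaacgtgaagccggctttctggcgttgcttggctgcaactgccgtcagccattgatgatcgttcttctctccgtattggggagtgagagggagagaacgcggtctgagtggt

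The motifs fitted the name of the set. TGATG was found in the first 20 nt of 174 of 228 members (76.3%) and of 4 of 210 SNORA genes (1.90%), the H/ACA class of snoRNAs. CTGA was found in the last 15 nt of 194 members (85.1%) and of 7 SNORA genes (3.33%). Both were found in 161 members (70.6%) and in 0 SNORA genes. Among members of 100 nt or more both were found in 11 of 34 (32.4%), and among shorter members in 150 of 194 (77.3%).

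Box C/D snoRNAs held a small and even share of both libraries, and most of the genes were listed at 0. The members summed to 8460 estimated counts in replicate 1 and 9065 in replicate 2. This was 0.0336% of replicate 1 (exact 95% interval 0.0329 to 0.0344) and 0.0334% of replicate 2 (0.0327 to 0.0341), with a mean of 0.0335% ± 0.000162 (SD, n = 2). These intervals cover counting error only. SNORA genes held 0.0930% and 0.0983%. Divided by annotated length, the members held 1593 and 1534 per 1000000 of the library. In RNA from a whole culture, fewer cells with a snoRNA and less of it per cell cannot be told apart.

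In replicate 1, 78 members were above 0, and in replicate 2, 81. Both libraries listed 63 members above 0 and 132 (57.9%) at 0, and the other 33 were above 0 in 1 library, 15 of them in replicate 1 and 18 in replicate 2. Where reads fit no other transcript, a count of 0 allows up to 3 counts, so these members are not shown to be absent. The counts are estimates, and how reads shared with a host transcript or a near copy were divided was not analysed. A member was called detected at 1 or more normalised counts in both libraries. This held for 52 of 228 (22.8%, exact 95% interval 17.5 to 28.8), against 44.7% of all 59026 matched genes. At 10 or more in both libraries there were 21 members (9.21%), against 30.8% of all matched genes. Both shares of members were below those of all genes. SNORA genes were detected in 99 of 210 (47.1%) and reached 10 in 63 (30.0%).

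The total rested on 8 genes. SNORD17, a guide to 28S rRNA encoded in an intron of the sorting nexin gene SNX5, had 4131 and 3587 normalised counts in replicates 1 and 2, with 3859 ± 385 (SD, n = 2) on average. It alone held 46.1% and 42.7% of the box C/D total, a mean of 44.4% ± 2.46. The U3 gene SNORD3C had 1033 and 798 normalised counts, and the U3 gene SNORD3B-2 597 and 669. The third U3 gene, SNORD3B-1, had 353 and 541. Each of these 3 U3 genes was below SNORD17 in both libraries, and SNORD3C was above SNORD3B-2 and SNORD3B-1 in both.

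SNORD13, or U13, which is needed for acetylation of 18S rRNA, had 544 and 937 normalised counts, the largest ratio between the libraries among these 8 genes. SNORD10, a guide to U6 in the gene of the translation initiation helicase EIF4A1, had 569 and 523. SNORD97, a guide to a methionine tRNA in EIF4G2, had 570 and 371. SNORD15B, a guide to 28S rRNA in an intron of RPS3, had 488 and 376. In each library the lowest of the 8, at 353 and 371, was above the highest of the other 220 members, at 86.8 and 103. The 8 genes held 92.5% and 92.8% of the box C/D total, and the other 220 summed to 668 and 604 normalised counts.

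SNORD94, a further guide to U6, followed with 75.1 and 103 normalised counts, and SNORD118, or U8, which is needed for 28S and 5.8S rRNA processing, had 86.8 and 59.9. From the eighth gene, SNORD15B, to the ninth, SNORD94, the mean fell 4.85-fold, a difference larger than the spread between the libraries. A difference was called larger than the spread where the order was the same in both libraries and the gap of the means was wider than the sum of their SDs. Ranks 11 to 20 were held by SNORD36A, SNORD22, SNORD33, SNORD3A, SNORD95, SNORD46, SNORD89, SNORD83A, SNORD26 and SNORD55, with means from 34.9 down to 14.9 normalised counts. Among them SNORD33 had 24.3 and 24.0, SNORD95 18.5 and 15.5, SNORD46 18.0 and 15.8, SNORD89 12.7 and 19.5, SNORD83A 14.8 and 15.8, and SNORD55 11.9 and 17.8. Of the 25 neighbouring pairs among the 26 members with a mean of 10 or more, 4 differed by more than the spread, and these were SNORD17 over SNORD3C, SNORD3B-2 over SNORD10, SNORD15B over SNORD94 and SNORD118 over SNORD36A. These are counts not divided by length. Per 100 nt SNORD3B-2 was below SNORD10, at 80.0 with its GENCODE length or 292 with its RefSeq length against 385.

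**Figure D1:**
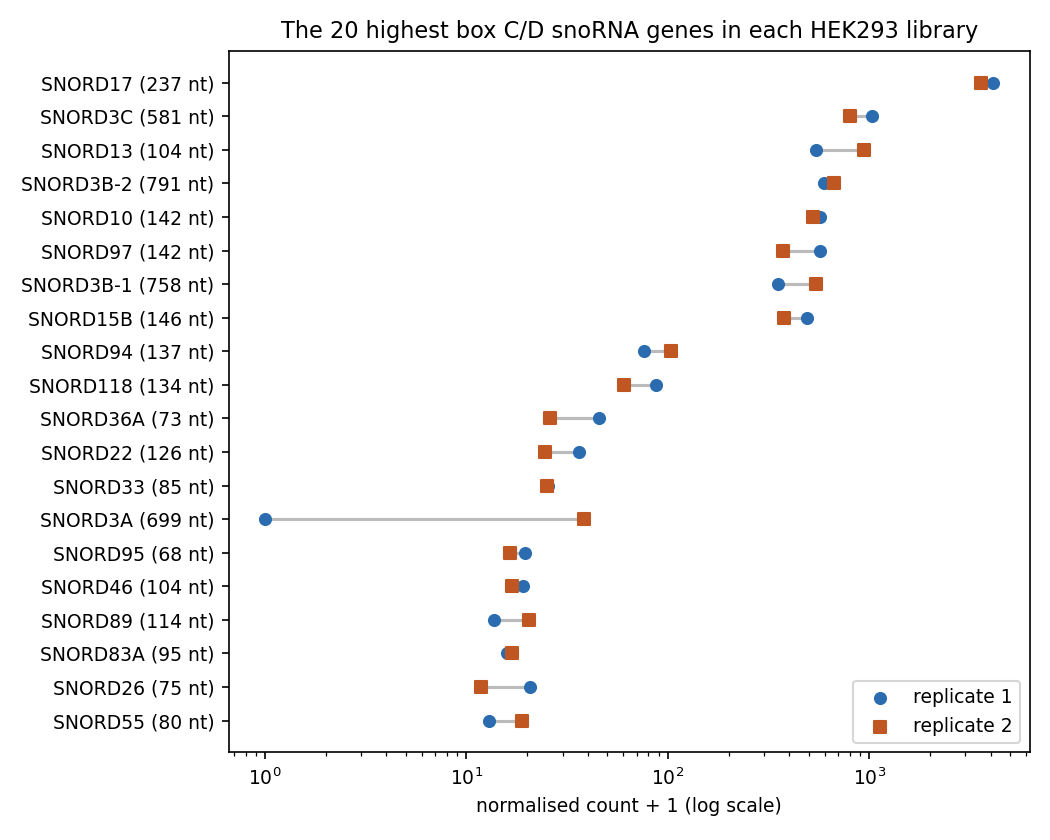
Normalised count + 1 on a log scale (x axis) of the 20 box C/D snoRNA genes with the highest mean, with annotated length in brackets (circles, replicate 1; squares, replicate 2; grey lines join the libraries). The first 8 genes lie at 353 or above in both libraries, SNORD17 lies furthest right, and SNORD3A was at 0 in replicate 1.

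Levels of different genes were compared per 100 nt of annotated length. On this scale SNORD17 had 1628 ± 162 normalised counts per 100 nt (SD, n = 2) and SNORD13 712 ± 267, 2.29-fold less and by more than the spread. SNORD10 followed with 385 ± 22.6 per 100 nt, SNORD97 with 331 ± 99.0 and SNORD15B with 296 ± 53.9. SNORD97 was not separated beyond the spread from SNORD10 or from SNORD15B, whereas SNORD10 was above SNORD15B in both libraries by more than the spread. SNORD94 had 65.0 ± 14.4 per 100 nt, SNORD118 54.7 ± 14.2, and SNORD36A, the highest short member, 47.8 ± 18.9. These last genes did not differ from each other by more than the spread, and 7 of 25 neighbouring pairs did so on this scale.

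The values of the U3 genes on this scale, and so their place beside other genes, depended on the gene model. Their order among themselves did not. GENCODE v44 gives SNORD3C, SNORD3A, SNORD3B-1 and SNORD3B-2 lengths of 581, 699, 758 and 791 nt, whereas RefSeq annotates 217 nt from the same 5′ end. With the GENCODE lengths SNORD3C had 158 ± 28.6 normalised counts per 100 nt, SNORD3B-2 80.0 ± 6.47 and SNORD3B-1 59.0 ± 17.5. With 217 nt they had 422 ± 76.7, 292 ± 23.6 and 206 ± 61.2 per 100 nt. How the counts were spread along the models was not analysed here.

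The 5 U3 genes of chromosome 17 are near copies. Their 217-nt spans were 98.2% to 100% identical, and those of SNORD3B-1 and SNORD3B-2 were identical, so the split of counts between them is uncertain. Their sum came to 1983 and 2045 normalised counts, 23.2% ± 1.54 of the box C/D total. SNORD3A had 0 and 37.4 normalised counts, and SNORD3D was listed at 0 in both libraries. Across all members, 36 of 228 had another snoRNA gene at 90% identity or more, among them 4 of the 26 members with a mean of 10 or more. Only genes of similar annotated length were compared, over their whole length. SNORD3C and SNORD3D were therefore not compared with the other U3 genes of chromosome 17, and these counts are minima.

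The pre-rRNA processing list, U3, U13, U8, U14 and U22 without some further copies of U3, U13 and U14, held 14 genes, of which 7 were detected, 6 reached 10 in both libraries and 4 were listed at 0 in both. Its share of the box C/D total was 29.8% in replicate 1, 36.6% in replicate 2 and 33.2% ± 4.79 on average. U3 and U13 made up nearly all of this. U14 was low, with SNORD14A at 4.23 and 9.27 normalised counts and the other 4 copies in the list not detected (3 listed at 0 in both libraries, SNORD14E at 1.06 and 0). The gene with the symbol SNORD14, on chromosome 2, was not in the list and had 1.06 and 0 normalised counts. The annotation holds SNORD22 as 2 genes within SNHG1, one at 35.2 and 23.5 and the other at 14.8 and 0.

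5 guides to U6 are shown with the longest stretch complementary to U6 (RNU6-1) in capitals, found by search on the RNA strand without G-U pairs, because their levels ranged from 0 to the fifth highest of all members. SNORD7 is at chr17:35573657-35573753 (plus strand), SNORD8 at chr14:21397292-21397401 (minus), SNORD10 at chr17:7576811-7576952 (plus), SNORD67 at chr11:46762389-46762499 (minus) and SNORD94 at chr2:86135870-86136006 (plus), all in GRCh38.
SNORD10: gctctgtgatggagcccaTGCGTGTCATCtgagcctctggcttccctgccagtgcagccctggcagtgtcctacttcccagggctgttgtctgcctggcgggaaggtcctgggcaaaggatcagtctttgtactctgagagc
SNORD94: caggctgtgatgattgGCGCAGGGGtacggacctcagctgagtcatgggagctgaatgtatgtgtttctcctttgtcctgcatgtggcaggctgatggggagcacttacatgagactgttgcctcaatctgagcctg
SNORD8: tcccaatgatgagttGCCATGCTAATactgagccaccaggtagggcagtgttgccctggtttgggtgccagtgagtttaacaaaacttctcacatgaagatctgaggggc
SNORD67: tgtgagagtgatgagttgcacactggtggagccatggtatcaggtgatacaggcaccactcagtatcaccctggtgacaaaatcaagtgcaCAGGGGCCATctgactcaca
SNORD7: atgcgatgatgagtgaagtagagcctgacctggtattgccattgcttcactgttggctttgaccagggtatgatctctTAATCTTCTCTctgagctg

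The stretches were 11 nt in SNORD7, SNORD8 and SNORD10, 10 nt in SNORD67 and 9 nt in SNORD94. The stretch of SNORD8, which lies in CHD8, was complementary to positions 50 to 60 of U6. That of SNORD7 was complementary to positions 43 to 53, of SNORD67 to 56 to 65, of SNORD94 to 60 to 68 and of SNORD10 to 72 to 82. Of the 6 guides to U6 listed 5 were detected, and together they held 7.58% ± 0.324 of the box C/D total. SNORD8 had 10.1 and 12.8 normalised counts, SNORD9 3.17 and 12.1, SNORD67 1.06 and 5.56, and SNORD7 was listed at 0 in both libraries. SNORD10 was above each of the other 5 in both libraries. Of the guides to 5.8S rRNA, SNORD71 had 1.06 and 0.927 normalised counts and SNORD96A 0 in both.

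Detection went with length. Of 34 members of 100 nt or more, 20 were detected (58.8%, exact 95% interval 40.7 to 75.4) and 14 reached 10 in both libraries. Of 194 shorter members, with a median of 74 nt, 32 were detected (16.5%, 11.6 to 22.5) and 7 reached 10. The shorter members include all imprinted genes listed below, 40 on chromosome 14 and 5 on chromosome 15, which were at 0 in both libraries. The long members held 95.6% and 96.6% of the box C/D total. The highest mean among the short members was 34.9 normalised counts, in SNORD36A. By length class, 5 of 33 members of 60 to 69 nt were detected, 14 of 108 of 70 to 79 nt, 5 of 37 of 80 to 89 nt, 8 of 16 of 90 to 99 nt, 8 of 15 of 100 to 129 nt, 6 of 6 of 130 to 150 nt and 6 of 13 of more than 150 nt. The share thus rose between 89 and 90 nt rather than at 100 nt, although the classes above are small. SNORA genes, which are longer, were detected in 13 of 47 at 100 to 129 nt and in 75 of 125 at 130 to 150 nt.

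Across the 228 members, Spearman's rho of length with the mean normalised count was 0.328 and with the mean per 100 nt 0.301, which is a description over genes of the same libraries. Length did not decide detection alone, as 10 long members were listed at 0 in both libraries. These were, by symbol, the U3 copies SNORD3D, SNORD3E, SNORD3G, SNORD3H and SNORD3P1, the U13 copies SNORD13D, SNORD13E and SNORD13P3, and SNORD23 and SNORD90. The part of fragment size and of the counting model in the relation with length was not tested.

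**Figure D2:**
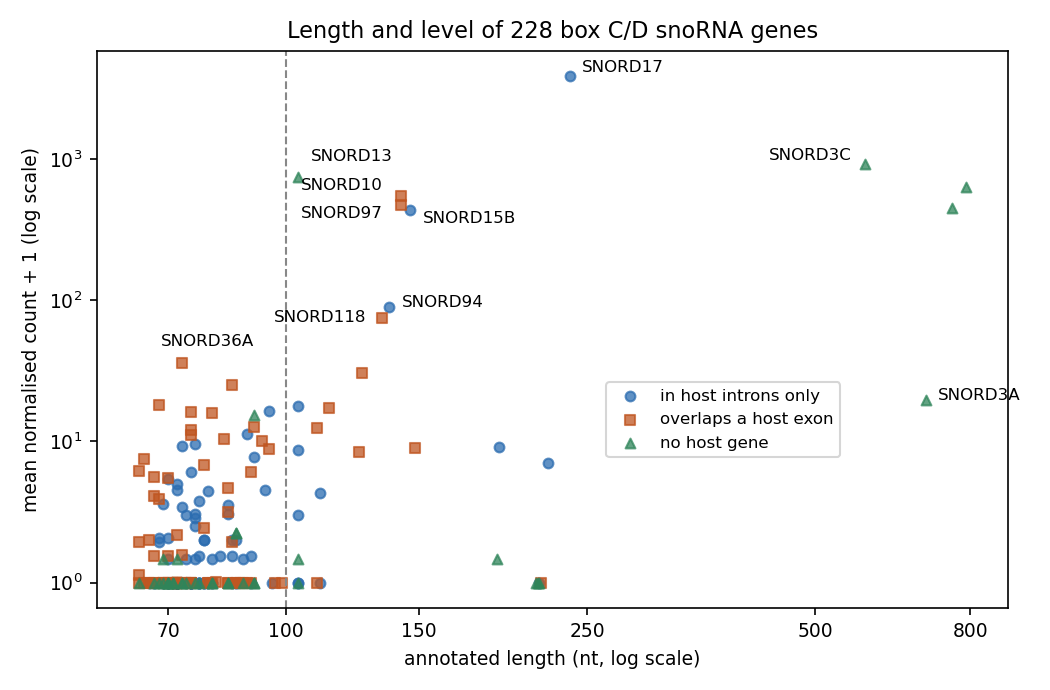
Annotated length in nt (x axis, log scale) against the mean normalised count + 1 over the 2 libraries (y axis, log scale) of the 228 members (circles, in host introns only; squares, overlapping a host exon; triangles, no host gene). To the left of the dashed line at 100 nt no member exceeded 34.9 normalised counts, and the 10 highest members all lie to the right of it.

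**Figure D3:**
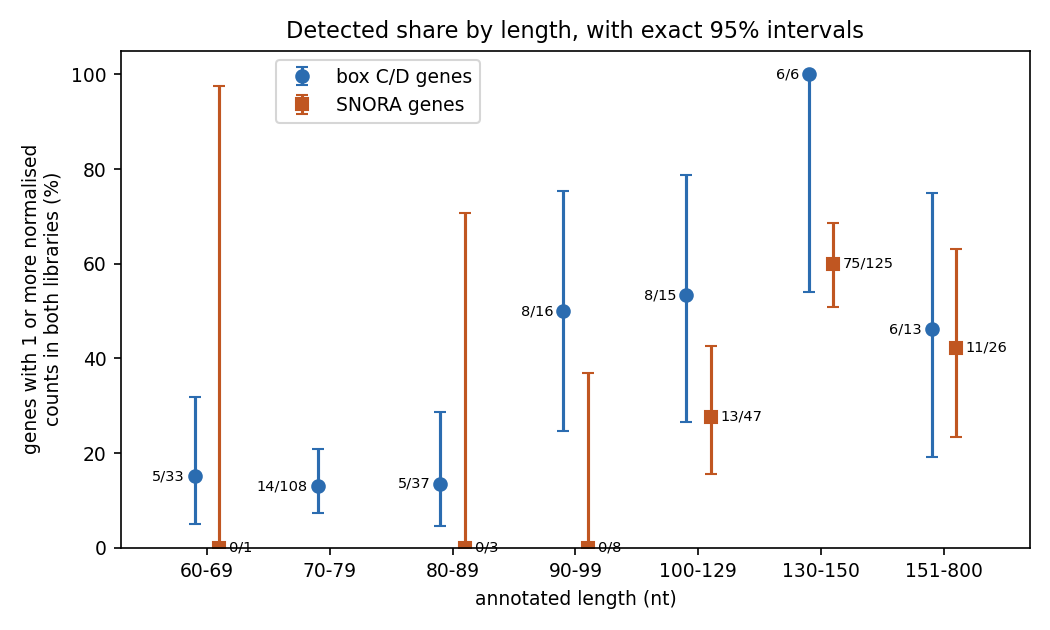
Share of genes with 1 or more normalised counts in both libraries (y axis, %) by annotated length class (x axis, nt) for box C/D genes (circles) and SNORA genes (squares), with exact 95% intervals and the counts beside each point. The box C/D share is at most 15.2% up to 89 nt and reaches 53.3% between 100 and 129 nt.

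The host gene was taken as the protein-coding or lncRNA gene on the same strand with the smallest span around the snoRNA. A host was found for 191 members in 88 host genes, protein-coding for 120 members and lncRNA for 71, and 37 members had none. More than 1 gene qualified for 30 members. Of the members in protein-coding hosts 38 of 120 were detected (31.7%, exact 95% interval 23.5 to 40.8), and of those in lncRNA hosts 9 of 71 (12.7%, 5.96 to 22.7). Without the members of MEG8 and MIR493HG, lncRNAs of the imprinted region of chromosome 14, the share for lncRNA hosts was 9 of 31 (29.0%, 14.2 to 48.0).

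Members without a host held 28.4% and 35.7% of the box C/D total, and only 5 of these 37 genes were detected, the U3 genes SNORD3C, SNORD3B-1 and SNORD3B-2, SNORD13 and SNORD88C. SNORD88C, at 15.5 and 13.2 normalised counts, lies within the pseudogene C19orf48P, which is neither of the host types used. Members inside introns only held 54.0% and 50.2%, mostly SNORD17 and SNORD15B, and those that overlap an annotated exon of the host held 17.5% and 14.1%.

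Estimated counts above 0 were whole numbers at the 2 decimals given in 71 of 76 values (93.4%) of members in introns only and in 20 of 64 values (31.2%) of members that overlap a host exon. In members without a host it was 6 of 19 values (31.6%). The fractional values there included those of the U3 genes and SNORD13, which have near copies. They also included those of SNORD88C, which lies inside a transcript of C19orf48P. The source of fractional counts was not tested. SNORD17 lies in an intron, within the spans of SNX5 and OVOL2, and its values, 3904 and 3868 estimated counts, were whole numbers. SNORD10 lies inside an exon of 1 EIF4A1 transcript of the retained intron type, which had 215 and 316 normalised counts, below the 569 and 523 of SNORD10 itself. SNORD36A lies inside an exon of an RPL7A transcript with 1145 and 1191, far above the 44.6 and 25.1 of the snoRNA, and SNORD22 and SNORD26 inside an SNHG1 transcript with 1324 and 1031. SNORD118 lies inside exons of TMEM107 transcripts with 83.9 and 65.4 and with 343 and 273 normalised counts, against its own 86.8 and 59.9. Reads of a mature snoRNA and of an overlapping host transcript cannot be told apart for such members, and the reads that RSEM divided between them were not analysed here. SNORD97 overlaps an EIF4G2 exon and, on the opposite strand, the gene CTR9, and no source used here gives the strand setting with which reads were counted.

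Host level and snoRNA level were far apart. Over the 47 detected members with a host, the median log2 ratio of snoRNA to host was -9.77 in replicate 1 and -9.64 in replicate 2, on the scale of normalised counts with a pseudocount of 1. Per 100 nt it was -6.01 and -5.81, and 3 members were on average above their host on that scale, SNORD17 with log2 ratios of 2.69 and 2.80, SNORD97 with 0.59 and 0.15 and SNORD118 with 0.39 and -0.17. TMEM107 is the gene around SNORD118 by the rule used here, although U8 is known to have its own transcription unit. By normalised counts SNORD17 alone was above its host, with a log2 ratio of 0.07 and 0.19, SNX5 having 3944 and 3148 normalised counts. The mean log2 ratio was -3.14 for SNORD118 to TMEM107, -3.87 for SNORD97 to EIF4G2 and -5.74 for SNORD10 to EIF4A1. SNORD95, in the strongly expressed host RACK1, had a mean log2 ratio of -11.82.

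A strongly expressed host did not go with a detected snoRNA in every case. Of 122 members whose host had 1000 or more normalised counts in both libraries, 47 were listed at 0 in both. Many of these 47 overlap an annotated exon of the host, where reads of the snoRNA and of the host transcript cannot be told apart. A 0 in such a member does not measure the snoRNA alone. Among members under 100 nt, 18 of 52 were detected (34.6%) where the host mean was 10000 or more, 9 of 53 (17.0%) where it was 1000 to 10000, 4 of 18 (22.2%) where it was 1 to 1000, and 0 of 45 where it was under 1. Their exact 95% intervals overlapped between the 3 classes of expressed hosts. The class under 1 was mostly the 40 imprinted genes of chromosome 14, which lie in MEG8 and MIR493HG. Spearman's rho between host and member mean was 0.399 over 191 members, many of which share a host, and 0.395 over the 168 under 100 nt. Both values include those 40 genes, which are tied at 0 with hosts at 0.

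**Figure D4:**
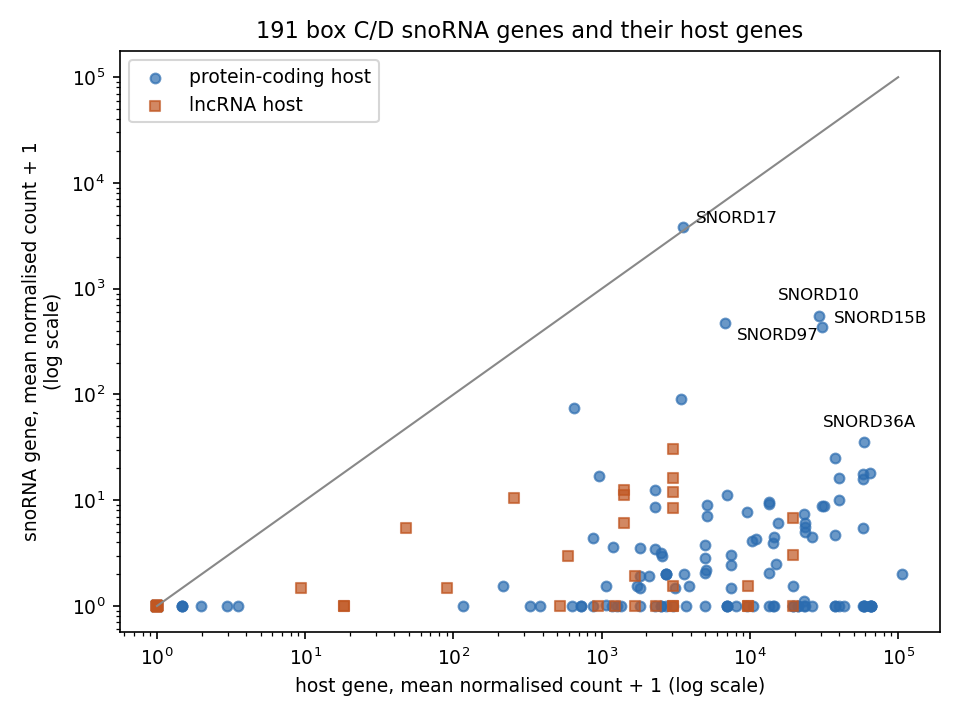
Mean normalised count + 1 of the host gene (x axis, log scale) against that of the snoRNA gene (y axis, log scale) for the 191 members with a host (circles, protein-coding host; squares, lncRNA host; the grey line marks equal values). Only SNORD17 lies above the line among detected members, and 47 members whose host reached 1000 in both libraries lie at 0. Many of these 47 overlap an annotated host exon.

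Ribosomal protein genes were frequent hosts. The 17 ribosomal protein host genes had 5055 to 65760 mean normalised counts and held 40 members, of which 18 were detected and 18 were listed at 0 in both libraries. RPL7A, with 63531 and 54862 normalised counts, contains 4 members, which are printed below because a single host gave 1 detected snoRNA and 3 at 0. They lie on the plus strand of chromosome 9, SNORD24 at chr9:133349396-133349470, SNORD36B at chr9:133350095-133350168, SNORD36A at chr9:133350456-133350528 and SNORD36C at chr9:133350847-133350912 (GRCh38). Capitals mark runs of 11 nt or more that are complementary to rRNA and end directly before a CTGA or 1 nt away from it.
SNORD36A: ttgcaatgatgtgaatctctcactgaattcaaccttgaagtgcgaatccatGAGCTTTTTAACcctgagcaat
SNORD36B: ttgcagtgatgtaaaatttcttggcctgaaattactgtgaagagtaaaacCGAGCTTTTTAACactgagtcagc
SNORD36C: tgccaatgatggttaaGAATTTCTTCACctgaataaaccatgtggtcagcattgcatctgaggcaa
SNORD24: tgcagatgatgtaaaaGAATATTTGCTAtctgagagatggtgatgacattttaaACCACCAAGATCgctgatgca

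SNORD36A had 44.6 and 25.1 normalised counts, and SNORD36B, SNORD36C and SNORD24 were listed at 0 in both libraries. SNORD36A and SNORD36B are 68.9% identical over their length and carry runs that place the same base of 18S rRNA, position 668, at the fifth base upstream of CTGA. The run of SNORD36C placed position 3709 of 28S rRNA there, and those of SNORD24 positions 2354 and 2340. RPL13A, with 37986 and 36566 normalised counts, also holds 4 members, of which SNORD33 had 24.3 and 24.0, SNORD32A 7.41 and 0, and SNORD34 and SNORD35A 0 in both. RPL4 holds 4 members that were all at 0, at a host mean of 65760. The members in RPL7A, RPL13A and RPL4 all overlap an annotated host exon, so the division of reads with the host transcript bears on these values.

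SNHG1, a lncRNA known mainly as a snoRNA host, had 3320 and 2725 normalised counts and holds 7 members. Its higher SNORD22 gene had 35.2 and 23.5 normalised counts, SNORD26 19.6 and 10.8, SNORD28 16.3 and 5.59, SNORD30 1.06 and 0, and SNORD25 and SNORD27 were listed at 0. The second SNORD22 gene had 14.8 and 0. All values of SNHG1 members above 0 were thus higher in replicate 1, and SNHG1 was as well. No member lies in GAS5 in this annotation. In NOP56, which encodes a core protein of the same particles, SNORD110 had 12.8 and 7.52 normalised counts and the other 3 members were at 0. Of 37 hosts with 2 or more members, 15 held both a detected member and one listed at 0 in both libraries.

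The imprinted clusters were not detected. All 40 genes of SNORD112, SNORD113 and SNORD114 on chromosome 14 were listed at 0 in both libraries, and so were SNORD64, SNORD107, SNORD108, SNORD109A and SNORD109B on chromosome 15. Of the chromosome 14 genes, 26 lie in MEG8 and 14 in MIR493HG, both also at 0. On chromosome 15 not all hosts were at 0, as the lncRNA around SNORD109A and SNORD109B had 15.9 and 18.5 normalised counts.

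Complementarity to the targets was searched for in all members, as a run of 11 nt or more that ends at a CTGA or 1 nt before it and pairs without G-U pairs to 18S, 28S or 5.8S rRNA (the RNA45SN2 unit of chromosome 21) or U6. It was found in 69 of 228 members (30.3%) and in 3 of 210 SNORA genes (1.43%). The target was 18S rRNA for 32 members, 28S rRNA for 34, U6 for 2 and 5.8S rRNA for 1. Of those 18S members 10 were detected, and of the 28S members 13. Among members under 100 nt, 19 of 64 with a run were detected (29.7%), and 13 of 130 without one (10.0%). Without the imprinted genes of chromosomes 14 and 15, the latter was 13 of 85 (15.3%). A run describes the letters in these windows only, and its absence says nothing about a target, since known guides such as SNORD33 were without one.

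Pearson's r of log2(normalised count + 1) was 0.916 and Spearman's rho 0.771 across the 228 members, and r was 0.951 across the 52 detected, which is a description over genes. Of the 26 members with a mean of 10 or more, 16 were higher in replicate 1 and 2 lay more than 2-fold apart (7.69%), compared with 5.23% of 19110 genes with such a mean, a share of the same order. Between a mean of 10 and 50 it was 2 of 16 members (12.5%) and 15.4% of all genes at that level. The median absolute log2 difference was 0.50 for these members and 0.28 for all genes with a mean of 10 or more.

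The 2 members past 2-fold were SNORD3A, at 0 and 37.4 normalised counts, and SNORD28, at 16.3 and 5.59 with a log2 difference of -1.39 (replicate 2 minus replicate 1, pseudocount of 1). SNORD36A and SNORD26 followed with log2 differences of -0.80 each, and SNORD13 with 0.78. SNORD3A has near copies among the U3 genes, whose sum of 1983 and 2045 differed little, and the part of the split between copies was not tested. These differences are between libraries of 1 group and not between conditions.

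**Figure D5:**
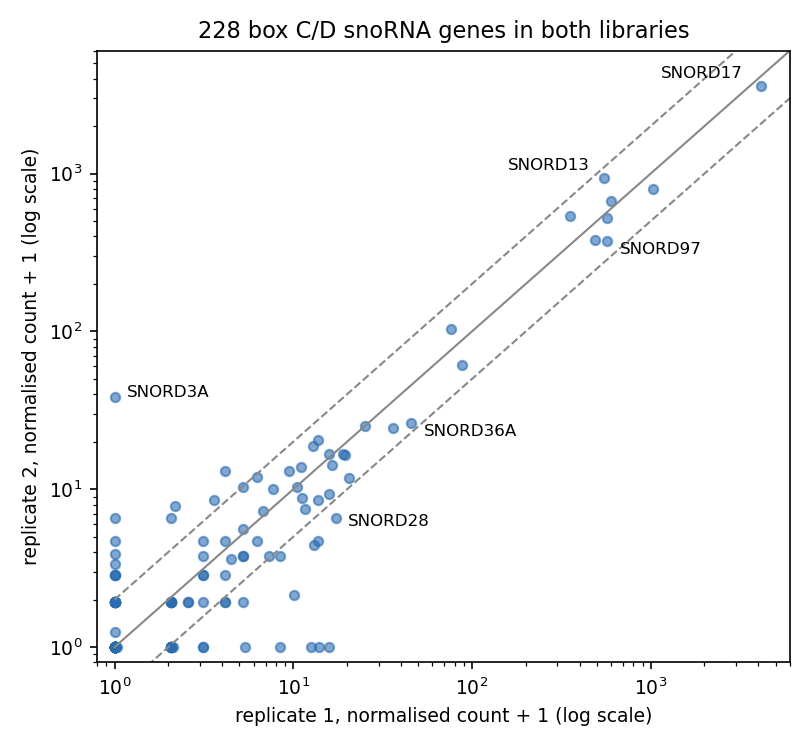
Normalised count + 1 in replicate 1 (x axis, log scale) against replicate 2 (y axis, log scale) of the 228 members, with the line of equal values (solid) and 2-fold differences (dashed). SNORD3A (0 and 37.4) and SNORD28 (16.3 and 5.59) lie outside the dashed lines among members with a mean of 10 or more, and many members below 10 do as well.

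The genes of the particle's proteins were detected in both libraries. FBL had 9782 and 9671 normalised counts, NOP56 7267 and 6804, SNU13 3398 and 3343, and NOP58 2072 and 1533. Per 100 nt FBL had 1142 ± 15.8 (SD, n = 2), NOP56 737 ± 58.0, SNU13 366 ± 3.96 and NOP58 118 ± 19.4. On that scale FBL lay below SNORD17, at 1628, and above every other member. All 8 assembly factors listed (NUFIP1, RUVBL1, RUVBL2, PIH1D1, RPAP3, ZNHIT3, ZNHIT6 and NOPCHAP1) were detected, with means from 543 to 4441 normalised counts. Per 100 nt their means ran from 9.45 in ZNHIT6 to 324 in RUVBL2.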

How the data were processed

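RNA was treated with DNase, depleted of rRNA and made into TruSeq libraries, per the labels. Each deposited table listed transcripts with an estimated count that the authors made with RSEM, which divides reads between transcripts they fit, and a normalised signal, the estimated count divided by a size factor of 0.945 for replicate 1 and 1.08 for replicate 2. The submitters' processing notes name FastQC, STAR 2.7.0d, RSEM 1.3.3 and R 3.6.3, and the study names GRCh38 as its genome. No source used here gives the strand setting. The shorter tables of METTL8 transcripts were not used.

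The 206696 transcripts were matched without version to GENCODE v44 (202217 matched, 96.9% and 96.8% of counts) and summed per gene, with pandas 2.3.3, NumPy 2.4.6 and SciPy 1.17.1 in Python 3.11.15. Named genes were the 20 highest members, the lists given in the report (SNORD133 was not among the matched genes), members of hosts with 4 or more members, the 5 largest differences between the libraries among members with a mean of 10 or more, and the particle's proteins. Members and lists were chosen with earlier results of these data known, and SNORD23, SNORD88C, SNORD90, SNORD110, the U3 and U13 copies at 0 and the example hosts were named after their values were seen. Values are means ± SD over the libraries, shares have exact (Clopper-Pearson) 95% intervals, and with 1 group no test between groups was made. The fold calls were tested on simulated libraries, in which the changed genes had higher counts than SNORD3A and SNORD28. That test therefore does not bear on the calls for these genes. Alternatives covered each library alone, division by length, other minimum counts, transcript versions, hosts, pseudocounts and denominators. Sequences came from the GENCODE v44 transcripts, and rRNA from the GRCh38 genome at RefSeq coordinates. Some sequences and a host gene are not reported here.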

Additional observations from a re-analysis of the deposited data

How the results depend on the processing

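Of 43 alternatives over 8 results, 25 were called the same. For shares and the ratio to the host this meant within the SD, and for counts within 1.5 times. For the library correlation it meant within a 95% band that treats genes as independent, which they are not. For the length difference it meant that both shares lay inside their exact 95% intervals. Part of these 25 calls was fixed in advance. For a share, each library alone always lies within the SD of both. No member had a transcript of another version, so that setting could not move counts or shares within the set. Shares and counts cannot change sign. Only the library correlation, the ratio to the host and the length difference could turn direction, and none did. The share of the library, 0.0335%, was 0.156% after division by length, 0.0404% without misc_RNA, ribozyme and snRNA transcripts in the denominator and 0.0552% with transcripts of the same version only, where the 28670 others leave the denominator. The 52 detected members became 21 with a minimum of 10, and 60 or 77 in a single library. The 2 members past 2-fold became 24 of 70 with a mean of 1 or more and 0 of 8 with a mean of 100 or more. SNORD17 held 37.9% of the box C/D total after division by length, and 33.0% with U3 also counted at its RefSeq length, an alternative chosen after seeing the data. The pre-rRNA processing share became 25.8% after division by length and 35.3% with that U3 length. With a pseudocount of 0.1 Pearson's r was 0.856, and it was 0.951 in members with 1 or more in both libraries. The median log2 ratio to the host ran from -10.52 without replicate 2 to -9.64 without replicate 1, the members detected being those of the library kept. It was -5.91 after division by length, -7.97 with the same transcript versions only, -9.55 for members that overlap no host exon and -9.91 with a pseudocount of 0.1. The detected share of long members exceeded that of short ones, imprinted genes included, by 42.3 percentage points. With a minimum of 10 this difference was 37.6, and in a single library 32.9 to 41.7. No paired analysis was possible because there was 1 group. For members at 0 or near 1 count, the parts of depth, fragment size and the counting model were not tested.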
